A study of Homo sapiens with 9 samples.

Results

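The genes described here lie on the long arm of human chromosome 1, from DUSP23 in band q23 to PGBD2 near the end of the arm in q44, and were named because their transcripts were lower in cytarabine-resistant HL-60 cells than in parental cells. Of 57 genes named, 56 had a row in the table of 20637 genes and all 56 passed the filter on low values, while TSNAX was not analysed here. They were measured by sequencing polyadenylated RNA of HL-60, a promyelocytic line from a human acute myeloid leukaemia, with 3 biological replicates in each of 3 groups. HRA cells resist Ara-C (cytarabine), which resembles deoxycytidine and blocks DNA synthesis, and grew with 100 nM of the drug. HRD cells resist DNR (daunorubicin), one of the anthracyclines, which trap topoisomerase II on DNA, and grew with 30 nM of the drug. Parental HL-60 cells are the common reference of both. All groups share the HL-60 background. The sources used here do not say whether either resistant line is a clone, and resistance and the presence of the drug cannot be told apart in this design.

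The 56 genes have no pathway in common and were grouped here by role. Some build or regulate the nucleus and its chromatin, others move proteins through the secretory pathway, and others handle protein modification and turnover, mitochondria and peroxisomes, small-molecule metabolism, or transport and signalling at membranes. What they share is a place along the same chromosome arm. In cells, neighbouring genes can differ together in RNA where a stretch of chromosome is present in more or fewer copies or lies in another chromatin state. DNA was not measured in these samples.

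The libraries held 20822709 to 66563328 reads. The members had at least 64 reads in every library. The promyelocytic markers summed to 259040 to 288427 normalised reads in HRA, 210296 to 268439 in HRD and 288495 to 331088 in parental libraries. MPO made up most of these sums, and ELANE averaged under 2 in every group. The other markers were less even: CTSG averaged 4120 in HRA, 6728 in HRD and 10855 in parental libraries, and PRTN3 748, 1914 and 2423. AZU1 averaged 758, 1094 and 825 and CD33 3046, 2528 and 2478 in the same order. Of the epithelial markers, KRT8 and KRT18 summed to 91.4 to 152 in HRA, 283 to 399 in HRD and 69.9 to 105 in parental libraries, and their part in the results was not tested. T cell and B cell markers summed to at most 28.4 and 40.6 in any library, and the erythroid and fibroblast genes in the table to at most 1.5 and 0.698.

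In HRA cells 55 of the 56 members had a mean difference below 0 from parental cells. Their median difference was −0.43 on the scale of log2(value + 1), with an interquartile range of −0.54 to −0.31, where a value is a normalised read count and the median over all 12569 tested genes was −0.01. These HRA values chose the members and are given as a description, with no test. All 3 HRA libraries lay below all 3 parental libraries for 45 members, an arrangement that 18.7% of all tested genes showed. The other 11 members, whose groups overlapped, were NCSTN, PFDN2, UAP1, HSD17B7, ATP1B1, VAMP4, QSOX1, GLUL, ENAH, NLRP3 and PGBD2. When libraries of the same replicate number were set against each other, 53 members were lower in HRA in all 3 numbers, against 29.6% of all tested genes, and the exceptions were VAMP4, GLUL and ENAH. The median over members was −0.47, −0.42 and −0.43 in HRA replicates 1, 2 and 3 relative to the parental mean of each gene, and −0.04, 0.03 and −0.01 in the parental replicates. In bulk RNA, fewer cells with a given level and less RNA per cell cannot be told apart.

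**Figure D1:**
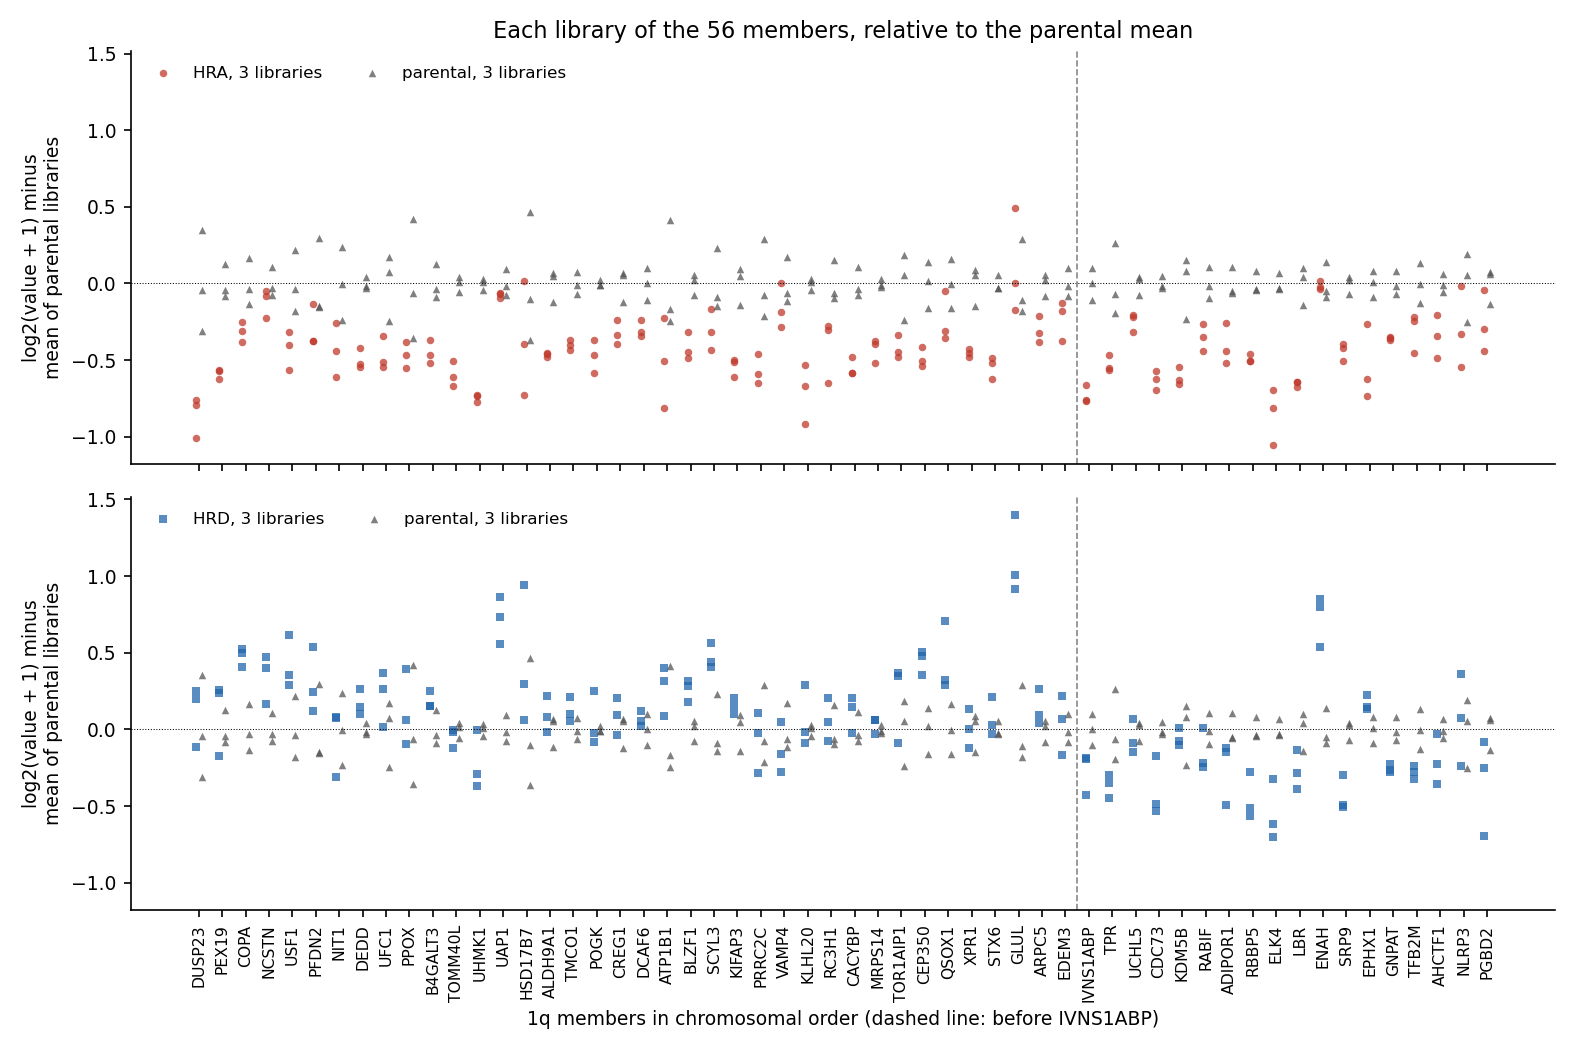
Each point is 1 library of 1 member, as log2(value + 1) minus the mean of the 3 parental libraries, with members in chromosomal order on the horizontal axis; the upper panel shows HRA and parental, the lower HRD and parental libraries. HRA points lie below parental points along the whole list with 11 overlaps, while HRD points lie near or above parental points left of the dashed line and mostly below them right of it.

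HRD cells did not share this pattern along the whole list. Over the same 56 members their median difference from parental cells was 0.07, and 20 members were below 0 and 36 above. With libraries of the same number set against each other, 12 members were lower in HRD in all 3 numbers, against 27.2% of all tested genes. For HRD and parental libraries the numbers are not taken as pairs, so this count is a description. By limma with Benjamini-Hochberg adjustment over all 12569 tested genes, 7 members fell in HRD, or 12.5% of members against 12.0% of all tested genes, and 10 rose, or 17.9% against 10.7%. The parental libraries in this test are the ones that also entered the choice of the members. The counts depended on single libraries: without HRD replicate 2 or without HRD replicate 3 there were 3 members lower (5.36%, against 9.04% and 9.58% of all tested genes), and without parental replicate 1 or without parental replicate 3 there were 6 higher (10.7%, against 8.44% and 8.62% of all tested genes). Without replicate 2 of every group, a setting chosen after seeing the data, 1 member was lower (1.79%, against 5.81% of all tested genes) and 6 were higher (10.7% against 5.89%). With only HRD and parental libraries in the fit there were 4 lower (7.14%, against 8.72% of all tested genes) and 6 higher (10.7% against 7.79%).

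The members that fell in HRD were all in the distal stretch of the list, from IVNS1ABP to PGBD2. A split of the list before IVNS1ABP, placed after the values were seen and so not tested, separated 38 proximal members (DUSP23 to EDEM3) from 18 distal ones. Among proximal members the HRA median was −0.43 and the HRD median 0.12, and among distal members these medians were −0.42 and −0.26. By limma none of the 38 proximal members fell in HRD and 9 rose, or 23.7%. Of the 18 distal members 7 fell, or 38.9%, and 1, ENAH, rose, or 5.56%. Over all tested genes 12.0% fell and 10.7% rose. The split stands at the first member called lower, so its place fixes that no proximal member fell. That call, of IVNS1ABP, held under 8 of 20 other settings. All 3 HRD libraries lay below all 3 parental libraries for 9 of the 18 distal members and for none of the proximal ones, against 18.2% of all tested genes. They lay above them for 12 proximal and 2 distal members, against 17.1% of all tested genes. In HRD replicates 1, 2 and 3 the median over distal members was −0.16, −0.26 and −0.29 relative to the parental mean, and that over proximal members was 0.21, 0.23 and 0.06. HRA gave −0.48, −0.47 and −0.45 for the distal members and −0.47, −0.39 and −0.42 for the proximal ones.

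The 297 other tested protein-coding genes between DUSP23 and PGBD2 are given beside the members by position, with no test of the difference. Their median in HRA was −0.39 before IVNS1ABP, over 93 genes, and −0.48 from there on, over 204 genes. In HRD the medians were 0.08 and −0.28. Of the 93 genes 11, or 11.8%, fell in HRD by limma and 17 rose, or 18.3%. The place of the split left no proximal member that fell. Of the 204 genes 78 fell, or 38.2%, and 7 rose, or 3.43%. Over all tested genes 12.0% fell and 10.7% rose. The share of distal members that fell in HRD was 38.9%. All 3 HRA libraries lay below all 3 parental libraries for 54.8% of the other proximal genes and 78.9% of the proximal members. In the distal stretch these shares were 73.0% and 83.3%, and over all tested genes 18.7%. The members were chosen on their HRA values, so the choice itself favours higher shares among them. The members are 56 of the 353 tested protein-coding genes of the interval.

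Chromosome 1 was also divided into consecutive blocks of 25 tested protein-coding genes in RefSeq order. All 14 blocks inside the interval had a median below 0 in HRA, between −0.55 and −0.30. In HRD the 4 blocks from NCSTN to XPR1 had medians between 0.06 and 0.28, and the 10 blocks from STX6 to PGBD2 had medians between −0.38 and −0.06, with the value nearest 0 in the block from STX6 to C1orf27, which holds IVNS1ABP and TPR. The 6 blocks of the long arm that lie wholly before the interval had medians between −0.14 and 0.08 in HRA and between 0.08 and 0.18 in HRD. The block from IQGAP3 to COPA, in which the list begins, stood at −0.18 in HRA and 0.07 in HRD. Just outside the list, AIM2 and IFI16, which are innate immune DNA sensors, had HRA differences of −0.05 and −1.31 and MNDA had one of 0.34. AIM2 averaged only 6.79 normalised reads in HRA and 8.13 in parental libraries, so its HRA difference is poorly measured (SE 0.43). In HRD the differences were 2.33 for AIM2, −0.26 for IFI16 and 1.90 for MNDA. No tested protein-coding gene lay beyond PGBD2. For scale, the median over the 373 tested protein-coding genes of chromosome 8 was 0.49 in HRA cells and 0.16 in HRD cells.

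**Figure D2:**
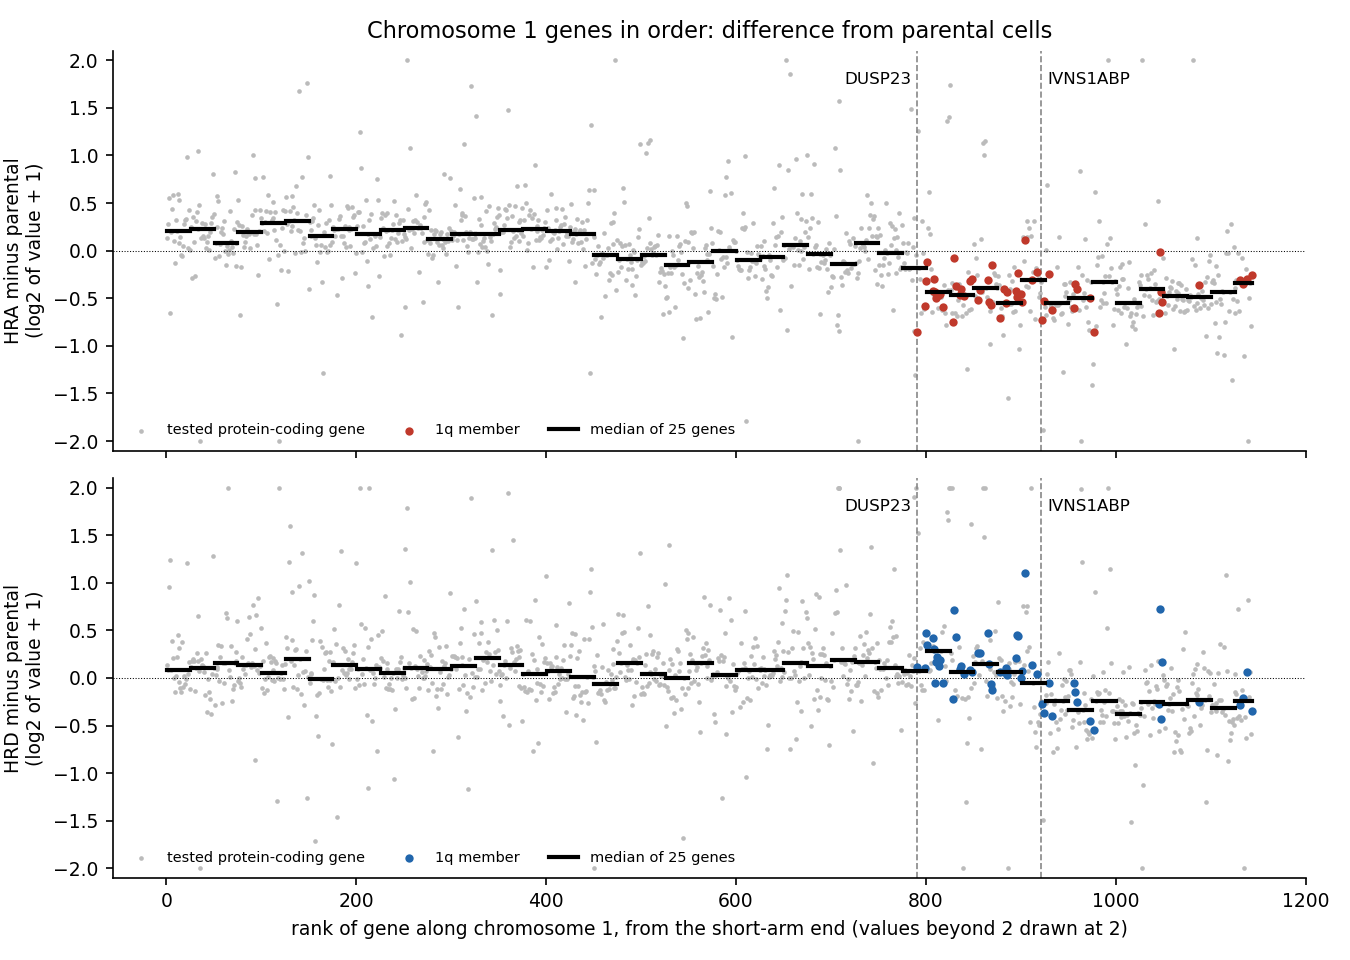
Every tested protein-coding gene of chromosome 1 by its rank from the short-arm end (horizontal) and its difference in log2(value + 1) from parental cells (vertical), HRA above and HRD below, with the 56 members coloured and black bars for medians of 25 genes (18 in the last block). In HRA the bars step down at the start of the list and stay between −0.55 and −0.30, and in HRD they step down only near IVNS1ABP.

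The 15 genes of the nucleus, chromatin and transcription stood at −0.50 in HRA and −0.21 in HRD by their medians. In HRD 4 of them fell by limma, or 26.7% against 12.0% of all tested genes, and 2 rose, or 13.3% against 10.7%. All 4 that fell lie in the distal stretch, as the place of the split fixed, and there 38.2% of the other genes of the interval fell. The role groups differ in their share of distal members, so role and position cannot be told apart in their HRD values. LBR encodes the lamin B receptor of the inner nuclear membrane, which shapes the nucleus of granulocytes. It had 13753, 13739 and 13432 normalised reads in HRA libraries, 19539, 17638 and 16397 in HRD libraries and 19472, 23044 and 22069 in parental libraries. HRA libraries were all lowest, 1.57-fold below parental cells by the fitted means, whereas HRD and parental libraries overlapped and HRD did not pass (log2 difference −0.27 ± 0.09, SE, limma adjusted p = 0.0565). ELK4, an ETS factor that partners with serum response factor, had the lowest HRA value of the group. It had 1625, 1372 and 1758 reads in HRA, 2274, 1749 and 1859 in HRD and 2987, 2776 and 2795 in parental libraries. Both resistant lines lay wholly below parental cells, with differences of −0.85 ± 0.12 in HRA and −0.55 ± 0.12 in HRD (SE, limma adjusted p = 0.00604 for HRD).

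Other distal genes of the nucleus differed in how HRD stood. RBBP5, a core subunit of the MLL and SET1 histone methyltransferases, had 1351, 1351 and 1394 reads in HRA, 1588, 1348 and 1295 in HRD and 1874, 2029 and 1865 in parental libraries. Its fall in HRD (−0.45 ± 0.09, SE, limma adjusted p = 0.00472) was close in size to its HRA difference of −0.49. CDC73, a subunit of the PAF1 elongation complex, and TPR, the basket protein of the nuclear pore, fell in HRD by 0.40 and 0.36 on the log2 scale (limma adjusted p = 0.0132 and 0.0317), beside HRA differences of −0.63 and −0.53. The histone demethylase KDM5B was 1.52-fold lower in HRA, at 2944 ± 119 reads, and stood at 4317 ± 174 in HRD and 4511 ± 616 in parental cells (SD, n = 3 each), where HRD and parental libraries overlapped. AHCTF1, a nuclear pore assembly factor also called ELYS, had −0.35 in HRA and −0.21 in HRD (adjusted p = 0.165). PGBD2, a transposase-derived gene and the last of the list, had 212, 235 and 280 reads in HRA, 272, 178 and 243 in HRD and 301, 263 and 304 in parental libraries. Its groups overlapped in both comparisons.

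None of the proximal members of the nucleus fell in HRD, which the place of the split fixed. Of the other proximal genes of the interval 11.8% fell, against 12.0% of all tested genes. USF1, a transcription factor of E-box sequences, rose by 0.42 ± 0.12 (SE, limma adjusted p = 0.0286) in HRD and had −0.43 in HRA. The pseudokinase gene SCYL3 rose by 0.47 in HRD (adjusted p = 0.0193) and had −0.31 in HRA. The kinase UHMK1 had 4727, 4572 and 4700 reads in HRA, which lay below all parental libraries at 7594, 7893 and 8004, and its HRD value was −0.22 (adjusted p = 0.109). DEDD, TOR1AIP1 and POGK had HRA differences of −0.50, −0.42 and −0.47 and HRD differences of 0.17, 0.21 and 0.05, with no HRD value past the threshold. PRRC2C, an RNA-binding protein of stress granules, had −0.57 in HRA and −0.07 in HRD.

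The 11 secretory and endosomal genes stood at −0.35 in HRA and 0.09 in HRD by their medians. In HRD 3 of them rose by limma, or 27.3% against 10.7% of all tested genes, and 1 fell, or 9.09% against 12.0%. SRP9, a subunit of the signal recognition particle, lies in the distal stretch. It had 16188, 15023 and 15900 reads in HRA, 17332, 15138 and 14968 in HRD and 21659, 21953 and 20278 in parental libraries. HRA and HRD overlapped each other and lay below every parental library, and its fall in HRD was −0.43 ± 0.08 (SE, limma adjusted p = 0.00412) beside −0.44 ± 0.08 in HRA. COPA, the alpha subunit of the COPI vesicle coat, lies in the proximal stretch. It had 6323, 6922 and 6629 reads in HRA, 11842, 11646 and 10898 in HRD and 7502, 9241 and 8044 in parental libraries, so that HRA lay below and HRD above the parental range. The rise in HRD was 0.48 ± 0.09 (SE, limma adjusted p = 0.00302), beside −0.31 ± 0.09 in HRA.

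NCSTN, the gamma-secretase subunit nicastrin, starts head to head with COPA, 132 bases away in RefSeq. It had 2238, 2532 and 2476 reads in HRA, 3635, 3447 and 2928 in HRD and 2481, 2816 and 2563 in parental libraries. It rose in HRD with COPA (0.34 ± 0.10, SE, limma adjusted p = 0.0250), while HRA and parental libraries overlapped, with a difference of −0.12. STX6, a SNARE of the trans-Golgi network, had 990, 969 and 900 reads in HRA, 1603, 1359 and 1416 in HRD and 1360, 1361 and 1439 in parental libraries. It was 1.45-fold lower in HRA and overlapped with parental cells in HRD. The golgin gene BLZF1 rose in HRD by 0.26 (adjusted p = 0.0488), a call that held under 7 of 20 other settings, and had −0.42 in HRA. TMCO1, CREG1, KIFAP3, EDEM3, RABIF and VAMP4 had HRA differences between −0.54 and −0.16 and did not pass in HRD.

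The 8 genes of ubiquitin, UFM1 and protein folding stood at −0.44 in HRA and 0.06 in HRD by their medians. In HRD 1 of them fell by limma, or 12.5% against 12.0% of all tested genes, and none rose, against 10.7%. CACYBP, a partner of the Siah ubiquitin ligases, had 5652, 5269 and 5250 reads in HRA, 9076, 8713 and 7754 in HRD and 8507, 7682 and 7494 in parental libraries. HRA was 1.46-fold below parental cells without overlap, and HRD overlapped with them. IVNS1ABP, a kelch protein that binds an influenza virus protein, had 3113, 3347 and 3125 reads in HRA, 4648, 4620 and 3926 in HRD and 4916, 5293 and 5676 in parental libraries. The order HRA, HRD, parental held without overlap, and its fall in HRD just passed (−0.27 ± 0.09, SE, limma adjusted p = 0.0484), a call that held under 8 of 20 other settings. UCHL5, a deubiquitinase of the proteasome, had 5080, 4689 and 5017 reads in HRA, 6134, 5289 and 5491 in HRD and 6033, 5555 and 5971 in parental libraries. It had the smallest HRA difference of its group, −0.25, and overlapped with parental cells in HRD. KLHL20, an adaptor of cullin ligases, and UFC1, the conjugating enzyme of UFM1, had −0.71 and −0.47 in HRA and 0.06 and 0.22 in HRD, both short of the threshold there. RC3H1, DCAF6 and PFDN2 had −0.41, −0.30 and −0.29 in HRA.

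All 3 HRA libraries lay below all 3 parental libraries for the 6 genes of mitochondria and peroxisomes. The same held for 18.7% of all tested genes and 69.4% of tested protein-coding genes of the interval, and the HRA values chose the members. The medians of these 6 genes were −0.45 in HRA and −0.01 in HRD. In HRD 1 of them fell by limma, or 16.7% against 12.0% of all tested genes, and none rose, against 10.7%. GNPAT, which starts ether lipid synthesis in peroxisomes, had 2933, 2900 and 2942 reads in HRA, 3212, 3102 and 3125 in HRD and 3974, 3716 and 3579 in parental libraries. It fell in HRD by 0.25 on the log2 scale (limma adjusted p = 0.0219) beside −0.36 in HRA. TOMM40L, a relative of the channel of the mitochondrial outer membrane, had 1234, 1285 and 1382 reads in HRA, 1937, 1961 and 1804 in HRD and 1889, 1981 and 2023 in parental libraries. Only HRA stood apart, 1.51-fold lower. TFB2M, a factor of mitochondrial transcription, had 1845, 1595 and 1877 reads in HRA, 1799, 1854 and 1744 in HRD and 2398, 1997 and 2176 in parental libraries. Both lines lay below parental cells, with −0.31 in HRA and −0.28 in HRD, and the HRD value missed the threshold (adjusted p = 0.0505). PEX19, MRPS14 and PPOX had −0.58, −0.43 and −0.46 in HRA and 0.11, 0.03 and 0.12 in HRD, none past the threshold there.

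The 8 enzymes of small molecules, sugars and redox reactions stood at −0.40 in HRA and 0.31 in HRD by their medians. In HRD 3 of them rose by limma, or 37.5% against 10.7% of all tested genes, and none fell, against 12.0%. GLUL, glutamine synthetase, had 10016, 14008 and 8828 reads in HRA, 20041, 26236 and 18808 in HRD and 9245, 12172 and 8810 in parental libraries. It was the 1 member with a mean HRA difference above 0 (0.11 ± 0.18, SE), against the name of the list, and in HRD it rose 2.15-fold without overlap (1.11 ± 0.18, SE, limma adjusted p = 0.00155). Replicate 2 was the highest in every group. UAP1, which makes UDP-N-acetylglucosamine, had 2326, 2339 and 2292 reads in HRA, 4440, 4060 and 3584 in HRD and 2409, 2607 and 2317 in parental libraries. HRA and parental libraries overlapped (−0.07 ± 0.09, SE), and HRD rose by 0.72 ± 0.09 (SE, limma adjusted p = 2.23e-04).

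EPHX1, the microsomal epoxide hydrolase, had 161, 206 and 149 reads in HRA, 271, 289 and 274 in HRD and 233, 261 and 249 in parental libraries. HRA lay below and HRD above the parental range, and the HRD difference of 0.17 did not pass (adjusted p = 0.456). QSOX1, a sulfhydryl oxidase of the secretory pathway, rose in HRD (0.44, adjusted p = 0.0334) and had −0.24 in HRA. ALDH9A1, B4GALT3, NIT1 and HSD17B7 had −0.46, −0.45, −0.44 and −0.37 in HRA and did not pass in HRD.

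The 8 genes of membrane transport, signalling and cytoskeleton stood at −0.43 in HRA and 0.12 in HRD by their medians. In HRD 2 of them rose by limma, or 25% against 10.7% of all tested genes, and none fell, against 12.0%. DUSP23, a small dual-specificity phosphatase and the first of the list, had the lowest HRA difference of all members. It had 92.8, 90.6 and 78.0 reads in HRA, 146, 188 and 182 in HRD and 202, 153 and 127 in parental libraries. HRA lay 1.81-fold below parental cells without overlap, and HRD overlapped with them (0.11 ± 0.20, SE, limma adjusted p = 0.735). ARPC5, a subunit of the actin-nucleating Arp2/3 complex, had 4654, 5016 and 4457 reads in HRA, 6184, 6968 and 5989 in HRD and 5906, 6038 and 5495 in parental libraries. Its HRA difference was −0.30 without overlap, and it overlapped with parental cells in HRD.

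ENAH, a regulator of actin filaments, had 561, 540 and 547 reads in HRA, 999, 804 and 963 in HRD and 521, 536 and 610 in parental libraries. HRA did not stand apart (−0.01 ± 0.11, SE), and HRD rose by 0.73 ± 0.11 (SE, limma adjusted p = 8.69e-04) while SRP9, its neighbour in the list, fell there. CEP350, a centrosome protein, had 2204, 2163 and 2354 reads in HRA, 4370, 4016 and 4446 in HRD and 2803, 3176 and 3461 in parental libraries. HRA lay below and HRD above the parental range, with a rise in HRD of 0.45 ± 0.09 (SE, limma adjusted p = 0.00467) beside −0.49 ± 0.09 in HRA. ATP1B1, XPR1 and ADIPOR1 had −0.51, −0.45 and −0.41 in HRA and 0.27, 0.00 and −0.25 in HRD. NLRP3, the inflammasome sensor, had −0.30 ± 0.19 in HRA and 0.06 ± 0.19 in HRD (SE), with overlap in both.

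**Figure D3:**
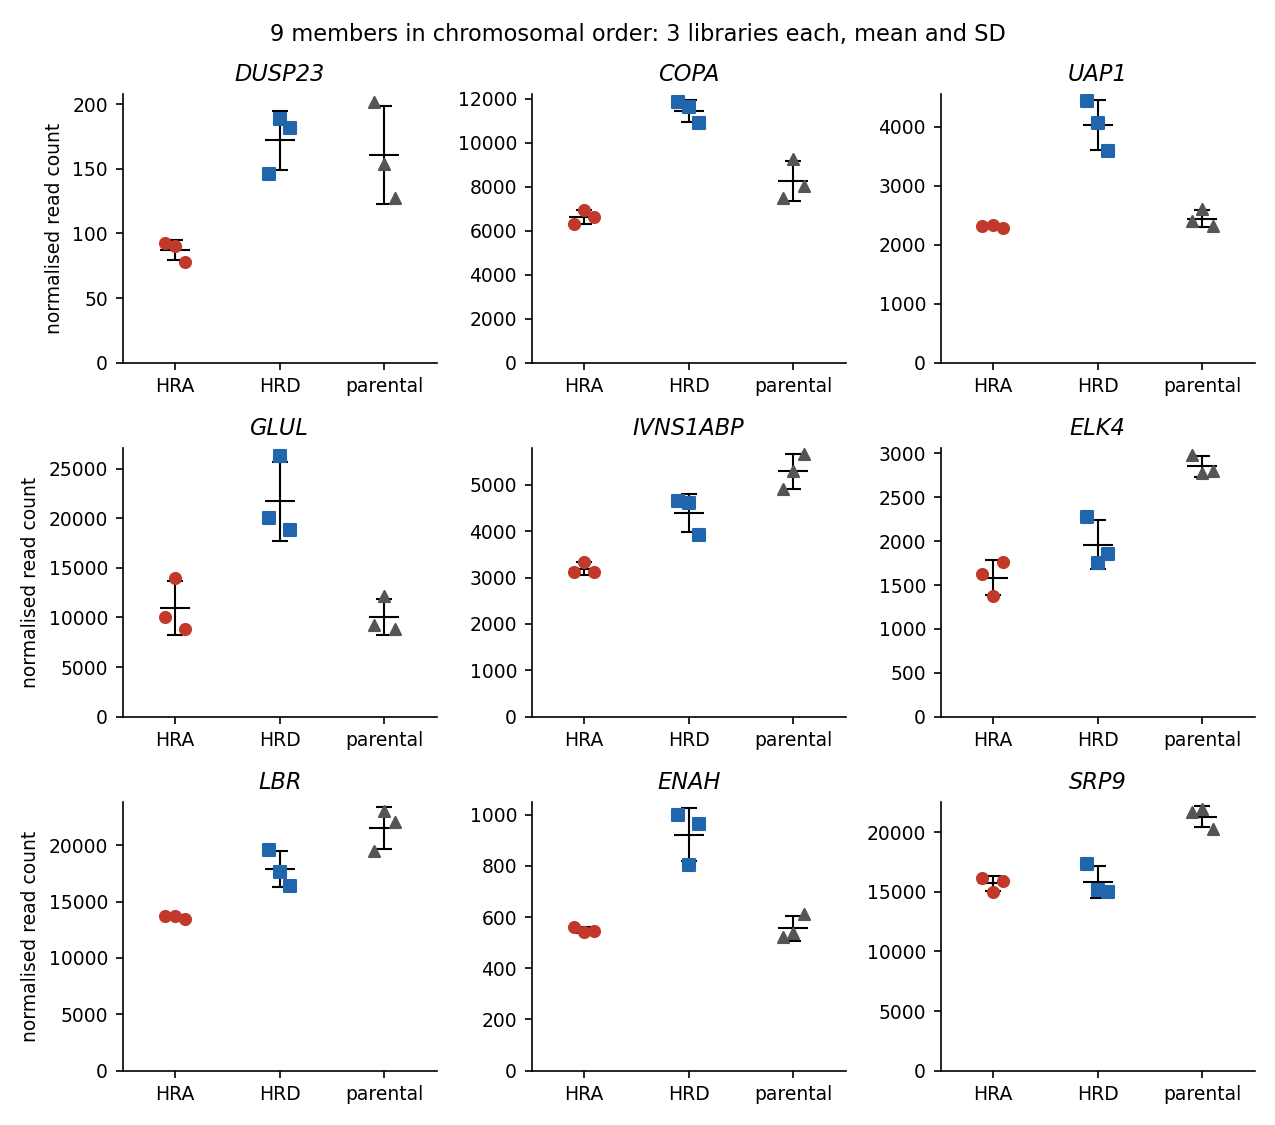
Normalised read counts (vertical, from 0) of 9 members in chromosomal order for HRA, HRD and parental cells, with 3 libraries each and bars for mean and SD. HRA lies below parental cells for DUSP23, COPA, IVNS1ABP, ELK4, LBR and SRP9, HRD stands highest for COPA, UAP1, GLUL and ENAH, and HRD also lies below parental cells for IVNS1ABP, ELK4 and SRP9.

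Set against each other directly, HRD had higher values than HRA for 55 of the 56 members, with a median difference of 0.52, and this too rests on the HRA libraries that chose the members. The difference was 0.62 in the median over the proximal and 0.20 over the distal members. It was near 0 for SRP9 (0.01), TFB2M (0.02), VAMP4 (0.03) and RBBP5 (0.04), and below 0 for PGBD2 (−0.08). The spread of the differences from parental cells was 0.19 in HRA and 0.32 in HRD, as the SD over members. Choosing members on their HRA values can narrow the HRA spread, so these SDs do not compare the lines.

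**Figure D4:**
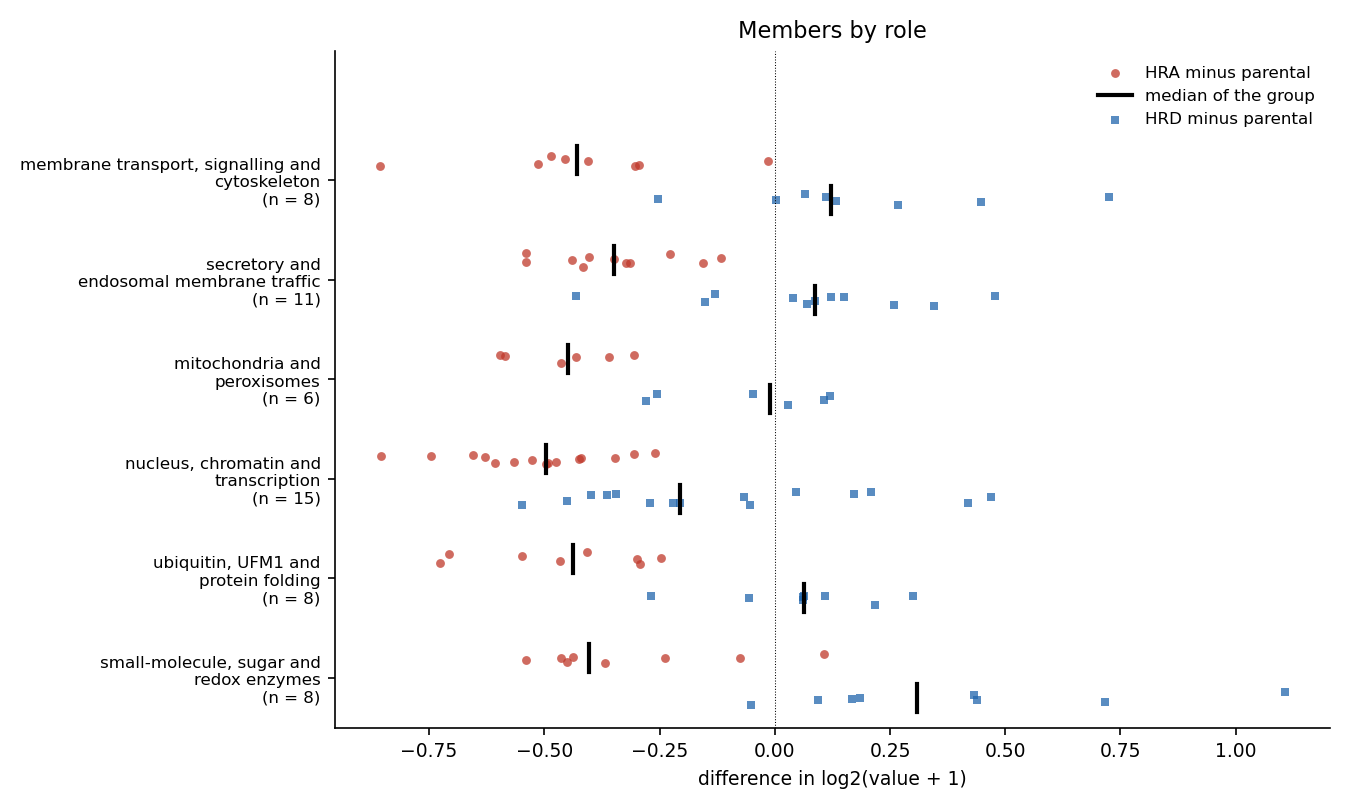
Differences from parental cells in log2(value + 1) (horizontal) for the members in 6 role groups (vertical), HRA above HRD in each group, with black bars for group medians. HRA medians lie between −0.50 and −0.35 in all groups, and HRD medians between −0.21 and 0.31. The groups differ in their share of distal members, so the HRD medians do not separate role from position.

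Of the 17 calls in HRD, 6 held under all 20 other settings tried, those of COPA, UAP1, CEP350, GLUL, ENAH and ELK4. RBBP5 and SRP9 lost theirs only when replicate 2 of every group was left out. The other 9 calls were lost under more than 1 setting. Leaving out parental replicate 1 or parental replicate 3 lost NCSTN, USF1, QSOX1 and BLZF1, and parental replicate 1 also SCYL3 and GNPAT. Leaving out parental replicate 2 lost SCYL3, BLZF1, GNPAT and IVNS1ABP, and parental replicate 3 also TPR and IVNS1ABP. Without HRD replicate 1 the calls of NCSTN, USF1 and BLZF1 were lost. Without HRD replicate 2 those of NCSTN, QSOX1, BLZF1, TPR, CDC73, GNPAT and IVNS1ABP were lost, and without HRD replicate 3 those of SCYL3, BLZF1, TPR, CDC73, GNPAT and IVNS1ABP. The fit shares its spread with the HRA libraries, and leaving out HRA replicate 1 lost QSOX1, TPR, BLZF1 and IVNS1ABP, while HRA replicate 2 or 3 lost BLZF1 and IVNS1ABP. With only HRD and parental libraries in the fit the calls of NCSTN, USF1, QSOX1, BLZF1, TPR, GNPAT and IVNS1ABP were lost. Those of BLZF1 and IVNS1ABP were also lost with no filter and with libraries scaled to the same median off chromosome 1, and that of IVNS1ABP with edgeR. Without replicate 2 of every group all calls but those of COPA, USF1, UAP1, CEP350, GLUL, ENAH and ELK4 were lost.

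RefSeq promoters were at hand for 51 of the 56 members, and PFDN2, UFC1, CDC73, AHCTF1 and PGBD2 are named only. Sequences before the start are shown for DUSP23, lowest in HRA, UAP1, with the smallest p in HRD, and ELK4, lowest in HRD and chosen after its value was seen. They end 30 bases before the start for DUSP23, 25 for UAP1 and 0 for ELK4. GLUL, highest in HRD, was picked in the same way but had too short a stretch free of exons to print. The 3 sequences are given 5′ to 3′ on the strand of the gene and without bases that GENCODE annotates as exon. They come from RefSeq on GRCh38.p14, at chr1:159780812-159780931 (plus strand) for DUSP23, chr1:162561381-162561505 (plus strand) for UAP1 and chr1:205632012-205632161 (minus strand) for ELK4. Capitals mark the CCAAT box, read on either strand, in DUSP23 and UAP1, and the ETS motif in ELK4.
DUSP23: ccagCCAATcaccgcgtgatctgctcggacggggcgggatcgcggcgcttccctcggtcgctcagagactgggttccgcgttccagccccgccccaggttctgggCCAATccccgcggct
UAP1: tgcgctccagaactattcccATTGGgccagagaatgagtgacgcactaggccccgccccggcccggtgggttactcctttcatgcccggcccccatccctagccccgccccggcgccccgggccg
ELK4: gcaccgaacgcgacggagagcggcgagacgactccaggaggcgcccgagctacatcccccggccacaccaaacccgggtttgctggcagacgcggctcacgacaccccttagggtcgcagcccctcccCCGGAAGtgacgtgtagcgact

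Over the 250 bases before the start, the 51 promoters had a median GC content of 61.6% and 19 CG dinucleotides, against 64.8% and 21 for the 9181 promoters of tested protein-coding genes. Each motif was searched on both strands. The E-box CACGTG, the sequence that USF1 binds, was in 9.80% of member promoters and 9.45% of those of tested genes. The ETS motif CCGGAAG was in 15.7% and 17.0%. The CCAAT box was in 33.3% and 35.4%, the TATA box TATAAA in 5.88% and 5.42%, and GCGCATG, the core of the NRF1 motif, in 5.88% and 7.03%. AAGATGG, the core of the YY1 motif, was in 7 of 51 promoters, or 13.7%, and in 3.65% of those of tested genes. That was the widest gap among the motifs searched and was not tested. The members with it were COPA, USF1, NIT1, DEDD, TOMM40L, SCYL3 and RC3H1, all in the proximal stretch. Matches of letters are descriptions and not binding sites.

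Read assignment limits some values. In RefSeq 15 members overlap another protein-coding gene, among them the member pairs NIT1 with DEDD and PPOX with B4GALT3. The kit keeps the strand, but whether counting used it is not given in the sources used here, so reads of such pairs may be mixed. The HRA median was −0.41 over the 41 members with no such overlap and −0.46 over the 15 with one. Pseudogenes limit others: 15 members, ATP1B1 being in both sets, have pseudogenes of the same name elsewhere, 6 of them for GLUL and 3 for CACYBP, with which reads may be shared.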

How the data were processed

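The authors deposited a signal per gene and library: reads scaled by 1 factor for each library. The submitters' processing notes name DESeq2, HTSeq 0.11.1, Cufflinks 2.2.1, Picard, TopHat2 2.1.1 and Bowtie2 2.3.5.1 and the build hg19, with no role or order. Dividing each library by its smallest step gave whole reads for 100% of values (tolerance 0.001). A count of 3 reads equals 1.49 to 4.52 normalised reads. The 12569 genes tested reached 10 normalised reads in 3 or more of the 9 libraries. One fit of log2(value + 1) over all 9 libraries used limma 3.58.1 under R 4.3.3, its spread allowed to follow the mean level. Calls needed a p below 0.05 after Benjamini-Hochberg adjustment. Differences on this scale understate those of low genes. An exact permutation test of 3 against 3 cannot go below p = 0.1. On recovered reads edgeR 4.0.16 called 1372 genes higher and 1480 lower in HRD and DESeq2 1.42.0 called 1492 and 1652.

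Members, lists, roles and settings were chosen with earlier results of these data known. Per-library values are given for, in each role group, the member with the most reads and those with the most and least negative HRA difference, the 8 members with the smallest HRD p, and both ends of the list; the head-to-head pair of the rule lay in exons and is not printed, and other members were described after their values were seen. Gene order came from RefSeq (GRCh38.p14, matched by symbol or synonym), and since the counts are on hg19, coordinates are printed for RefSeq promoters alone, on GRCh38.p14. Same-numbered HRA and parental libraries deviated together (correlations 0.22, 0.38 and 0.14), a hint from the data that their numbers pair them. Python 3.11.15, pandas 2.3.3 and matplotlib 3.10.9 made tables and figures.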

Additional observations from a re-analysis of the deposited data

How the results depend on the processing

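The HRA median of the members lay between −0.49 and −0.40 and the HRD median between 0.04 and 0.10 under all settings run. Scaling libraries to the same median off chromosome 1 gave −0.49 in HRA and 0.59 for HRD minus HRA. The median over all tested genes moved the same way, to −0.06 and 0.07. All blocks inside the interval stayed below 0 in HRA under each setting run, including 7 blocks of 50 genes. With only HRD and parental libraries in the fit, 4 members were called lower (7.14%, against 8.72% of all tested genes) and 6 higher (10.7% against 7.79%). Leaving out libraries gave 1 to 10 lower (1.79% to 17.9%, against 5.81% to 12.4% of all tested genes). The 10 lower came without HRD replicate 1 (17.9% against 12.4%). There were 6 to 9 higher (10.7% to 16.1%, against 5.89% to 10.6% of all tested genes). HRD minus HRA medians were then 0.49 to 0.56, and the causes were not tested. Without replicate 2 of every group, chosen after seeing the data, 1 member was lower (1.79% against 5.81%) and 6 higher (10.7% against 5.89%). Same-numbered HRD and parental libraries correlated at −0.08, 0.26 and 0.29, so their numbers are not taken as pairs; the replicate block gave 9 members lower (16.1%, against 15.1% of all tested genes) and 11 higher (19.6% against 13.9%). With edgeR 7 members were lower (12.5%, against 11.8% of all tested genes) and 10 higher (17.9% against 10.9%). With DESeq2 9 were lower (16.1% against 13.1%) and 10 higher (17.9% against 11.9%). Of 420 values of the 21 members given per library, 383 stayed on the same side of the threshold, called or not. Another 26 lost a call, 11 gained one and 0 calls reversed. Among values not called in either setting 1 changed sign, that of DUSP23, at −0.04 without parental replicate 3. The least counted member had 64 reads in its shallowest library, and 3 libraries per group limit small differences.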

Other observations

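Over its first part the short arm of chromosome 1 stood above 0 in HRA. The 18 blocks from NOC2L to SLC35D1 had medians between 0.08 and 0.31 in HRA and between −0.01 and 0.21 in HRD, while the 13 blocks from IL23R to MEF2D had medians between −0.15 and 0.08 in HRA and between −0.06 and 0.18 in HRD.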
